A study of Rattus norvegicus with 15 samples.

Results

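The microRNAs (miRNAs) rno-miR-143 and rno-miR-145 were followed across the hearts of glucose-fluctuating diabetic, steadily diabetic and control rats. Both were taken by their names in the array files, with every probe that carries the name, so 2 of the 350 miRNAs on the array are described, through 4 probes. Both were among the 165 miRNAs with enough signal to be tested. After the arrays were scaled, neither differed between any pair of groups by more than the spread between samples. Their largest scaled difference between group means was 1.11-fold, and 1 control heart carried more of both than the other controls did.

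All hearts were from male Sprague-Dawley rats. The glucose-fluctuation group (GF, 5 arrays) had received 1 streptozotocin injection of 60 mg/kg into a tail vein, and plasma glucose stood above 300 mg/dL. These rats were then starved for 24 h and given 0.5 IU/kg insulin intraperitoneally. The diabetic group (DM, 5 arrays) had received the same streptozotocin dose, with the same glucose criterion, and neither fast nor insulin is recorded for it. The control group (Veh, 5 arrays) was exposed to vehicle. Streptozotocin kills the pancreatic cells that make insulin, so both diabetic groups model a lack of insulin. Fasting, insulin and the swing in glucose came together in GF and cannot be told apart. Nothing in the labels ties arrays to animals, and the p-values below therefore speak of the spread between samples as deposited, with near-identical arrays averaged, and that spread can be partly technical.

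Both miRNAs are cut from neighbouring hairpins and are the best known miRNAs of smooth muscle. In mouse and human, serum response factor and its partner myocardin switch on the cluster. The mature miRNAs repress transcription factors such as KLF4, KLF5 and ELK1, which push smooth muscle cells away from the contractile state and towards growth. Mice that lack the cluster have arteries with thin, poorly contracting muscle layers. In the heart a main source is the muscle of the coronary vessels. In whole-heart RNA, fewer smooth muscle cells and less of a miRNA per cell cannot be told apart.

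The mature sequences are shown because the seed, bases 2 to 8 from the 5′ end, sets which messages a miRNA can pair with. They are from RefSeq for the rat assembly GRCr8, matched by name. The array names carry no arm, and the arms taken here are those that these names stood for when the array was designed. The seed is in capitals.

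rno-miR-143 (RefSeq rno-miR-143-3p): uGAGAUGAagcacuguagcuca

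rno-miR-145 (RefSeq rno-miR-145-5p): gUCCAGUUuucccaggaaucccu

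The seeds differ from each other, and neither was shared with any of the other rat mature miRNAs in the table (0 of 693 names each). The miR-143 sequence has 22 bases, of which 45.5% are G or C. The miR-145 sequence has 23 bases, of which 52.2% are G or C. In GRCr8 the miR-143 sequence lies at chr18:57371373-57371394 and the miR-145 sequence at chr18:57370033-57370055, both on the minus strand. Their hairpin genes, Mir143 (chr18:57371349-57371453) and Mir145 (chr18:57369983-57370070), are separated by 1278 bases. Both lie inside the long non-coding RNA gene Carmn (chr18:57368191-57389112), the host transcript of the cluster. The nearest protein-coding genes are Csnk1a1, a casein kinase, and Il17b, a cytokine.

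Serum response factor binds a motif known as the CArG box. A search of both strands found none in the 300 bases around the annotated start of Carmn (250 before it and 50 after it). Over all 33469 rat promoter windows of that length, 548 held one, which is 1.64%. The search covers only these letters in this window.

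Each array held 10 spots for each of the 4 probes, and 0 of those spots were saturated. The brighter miR-143 probe had 16938 to 20451 units of processed signal on the GF arrays, 11832 to 19185 on the DM arrays and 10671 to 18946 on the control arrays. It stood well above background on all 15 arrays. The second miR-143 probe was well above background on 15 arrays too, with 4472 to 5677 units in GF, 3099 to 5306 in DM and 2627 to 5075 in controls.

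The signal of miR-145 was low. Its brighter probe gave 62.7 to 85.4 units in GF, 41.7 to 69.1 in DM and 37.6 to 82.3 in controls, well above background on 15 of 15 arrays. Its second probe gave 20.0 to 30.6 units in GF, 15.3 to 25.1 in DM and 10.2 to 29.6 in controls. That probe was well above background on 4 GF, 4 DM and 2 control arrays. The floor set for dim signals after scaling was 19.8 units. Probes respond differently to their targets, so the signal of one miRNA is not set against that of the other. The error that the scanner software states for the summed signal of each miRNA was 8.13% to 8.30% for miR-143 and 8.83% to 15.2% for miR-145.

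**Figure D1:**
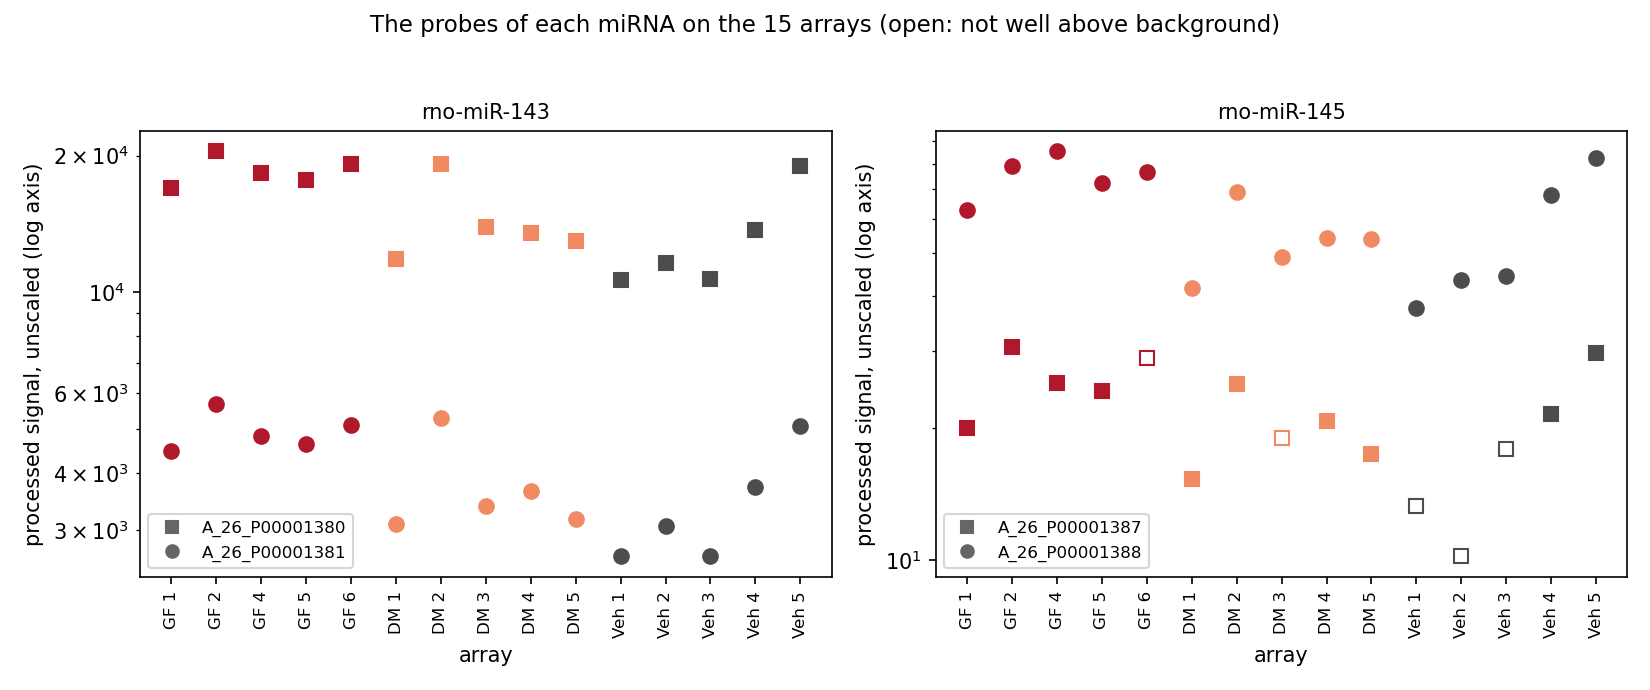
Mean processed signal of the probes of rno-miR-143 (left) and rno-miR-145 (right) on each of the 15 arrays, unscaled and on a log axis, with GF arrays in red, DM in orange and controls (Veh) in grey. Open symbols are probes not well above background, all of them for the dimmer miR-145 probe, and Veh 5 stands beside the GF arrays on all 4 probes.

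Arrays were scaled to the 75th percentile of their own signal, and log2 values of the brighter probe are given from here on. In 5 pairs of arrays of a group, the differences over miRNAs were smaller than the error stated by the software, so each pair was averaged and counted as 1 sample. This left 10 distinct samples: 3 of GF, 3 of DM and 4 controls. GF 1+5 stands for GF replicates 1 and 5 averaged, with the labels' own replicate numbers, and likewise for the others.

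Scaled miR-143 was 14.14 in GF 1+5, 13.79 in GF 2+4 and 13.80 in GF 6. It was 13.91 in DM 1, 14.00 in DM 2+4 and 13.84 in DM 3+5. In controls it was 13.69 in Veh 1+3, 13.51 in Veh 2, 13.64 in Veh 4 and 14.20 in Veh 5. The highest sample of all was thus a control, the other controls were the lowest samples, and the control range took in every GF and DM value. The group means were 13.91 ± 0.20 in GF (SD, n = 3), 13.92 ± 0.08 in DM (n = 3) and 13.76 ± 0.30 in controls (n = 4). DM, GF and Veh is the order of the means from the top, and no neighbours in that order differed by more than their spread.

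Scaled miR-145 was 6.14 in GF 1+5, 5.91 in GF 2+4 and 5.84 in GF 6. It was 5.76 in DM 1, 5.96 in DM 2+4 and 5.82 in DM 3+5. In controls it was 5.66 in Veh 1+3, 5.45 in Veh 2, 5.98 in Veh 4 and 6.36 in Veh 5. Controls held both the highest and the lowest sample, and again their range took in every GF and DM value. The means were 5.96 ± 0.16 in GF (n = 3), 5.84 ± 0.10 in DM (n = 3) and 5.86 ± 0.40 in controls (n = 4), so GF was the highest and controls and DM were 0.02 apart.

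**Figure D2:**
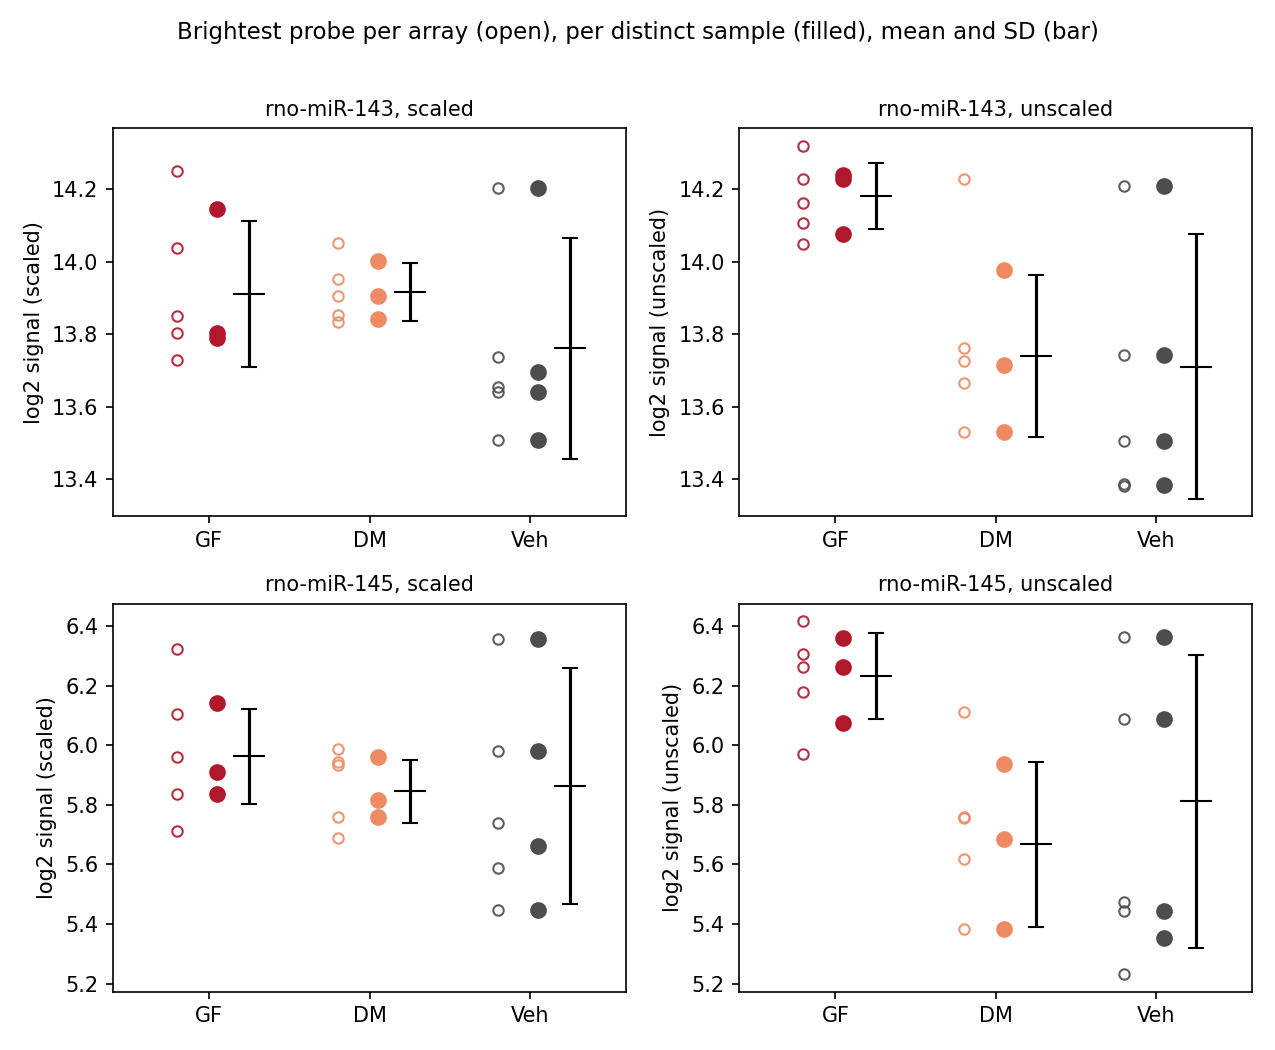
Log2 signal of the brightest probe of rno-miR-143 (top) and rno-miR-145 (bottom), scaled to each array's 75th percentile (left) and unscaled (right), in GF, DM and control (Veh) hearts. Open circles are arrays, filled circles the 10 distinct samples and bars the mean ± SD; the scaled groups overlap, and the unscaled GF samples lie above all DM samples while Veh 5 lies beside them.

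The comparison of GF with controls shows what the diabetic heart with fasting, insulin and swinging glucose carries relative to the normal heart. Scaled miR-143 was higher in GF by 0.15 (SE 0.16, limma, adjusted p = 0.563), and the 95% interval of the difference ran from -0.21 to 0.51, or 0.865-fold to 1.43-fold. Scaled miR-145 was higher in GF by 0.10 (SE 0.19, limma, adjusted p = 0.789), with an interval of 0.797-fold to 1.44-fold. In this comparison 13 of the 165 tested miRNAs passed an adjusted p of 0.05, which is 7.88%, and 0 of these 2 were among them. With all 15 arrays counted as separate samples 60 miRNAs passed, which is 36.4%, and again 0 of the 2. With the replicate number as a block on these arrays 50 passed, which is 30.3%, and 0 of the 2. The median difference of all tested miRNAs was -0.05. Of the 165 differences, 28 were higher than that of miR-143 and 39 higher than that of miR-145.

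The comparison of DM with controls shows the diabetic heart without the fast and insulin. The differences were 0.16 for miR-143 (SE 0.16, limma, adjusted p = 0.709) and -0.02 for miR-145 (SE 0.19, limma, adjusted p = 0.983). The intervals were 0.868-fold to 1.43-fold for miR-143 and 0.735-fold to 1.33-fold for miR-145. Here 0 of 165 miRNAs passed, a share of 0%, with 14 at an unadjusted p under 0.05, neither of the 2 among these.

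GF against DM sets fluctuating against sustained high glucose, the comparison named in the title of the series. The differences were -0.01 for miR-143 (SE 0.17, limma, adjusted p = 0.987) and 0.12 for miR-145 (SE 0.20, limma, adjusted p = 0.803). The intervals were 0.763-fold to 1.30-fold for miR-143 and 0.791-fold to 1.49-fold for miR-145. A share of 0% of the tested miRNAs passed (0 of 165, with 18 at an unadjusted p under 0.05). GF and DM were each set against the same controls, so the first 2 comparisons are not independent of each other.

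Veh 5 decided much of the control spread. It lay above the mean of the other controls by 0.59 for miR-143 and by 0.66 for miR-145. The same gap had a median of 0.13 over all tested miRNAs, and it was larger for 12 and 9 of them. Without Veh 5 the difference between GF and controls was 0.30 for miR-143 (limma, adjusted p = 0.100) and 0.26 for miR-145 (limma, adjusted p = 0.216). That between DM and controls was 0.30 for miR-143 (limma, adjusted p = 0.186) and 0.15 for miR-145 (limma, adjusted p = 0.574). Leaving out this array raised the differences from controls by more than 1.5 times for miR-143 and for miR-145 in GF. That of miR-145 in DM turned from -0.02 to 0.15. Neither miRNA passed without Veh 5. Over 156 miRNAs the array nearest to Veh 5 was DM 1, with a reduced chi-square of 1.14 against the stated error. Its values against the other controls were 3.25 to 4.07. Whether the heart or its label sets it apart was not tested.

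The 2 miRNAs varied more within groups than most others. The residual SD was 0.23 for miR-143 and 0.28 for miR-145, against a median of 0.15 over the tested miRNAs, and 39 and 25 of 165 had a larger one. Between the 2 arrays of a close pair, miR-143 differed by 0.02 to 0.21 and miR-145 by 0.05 to 0.39. For each miRNA the widest of these gaps between near-identical arrays exceeded every scaled difference between its group means. Unscaled, the gap of miR-143 within DM 2+4 was 0.50, against 0.47 for GF minus controls.

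Scaling decided how large the differences looked. The 75th percentile of an array was 2054 to 3422 units in GF, 1749 to 2566 in DM and 1774 to 2441 in controls, so GF arrays were brighter in general. Unscaled miR-143 averaged 14.18 ± 0.09 in GF (SD, n = 3), 13.74 ± 0.22 in DM (n = 3) and 13.71 ± 0.36 in controls (n = 4). Unscaled miR-145 averaged 6.23 ± 0.15 in GF, 5.67 ± 0.28 in DM and 5.81 ± 0.49 in controls. For both, all 3 GF samples lay above all 3 DM samples, while the control Veh 5 lay within the GF range for miR-143 and at its upper end for miR-145. For miR-145 Veh 4, at 6.09, also lay within the GF range. By array, DM 2 lay within the range of the GF arrays for both, at 14.23 for miR-143 and 6.11 for miR-145. It was averaged with DM 4, at 13.73 and 5.76, so the separation of GF from DM rests on that averaging.

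With 15 arrays and no scaling, miR-143 was higher in GF than in controls by 0.53 (limma, adjusted p = 0.0317), or 1.44-fold, and passed the test. In that fit 18.2% of the tested miRNAs passed (30 of 165), and the median of all tested miRNAs was itself higher in GF by 0.27. Relative to that median, miR-143 was higher by 0.26, and by 0.24 in the scaled fit of the same arrays. Scaling moves all miRNAs of an array alike, so values relative to the median are close by construction. The unscaled difference of miR-145 was 0.51 (limma, adjusted p = 0.0701), and 0.24 relative to the median. With the 10 distinct samples and no scaling, the difference was 0.47 for miR-143 (limma, adjusted p = 0.162) and 0.42 for miR-145 (limma, adjusted p = 0.260).

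The deposited comparisons were made on such unscaled values. In the authors' deposited table, the log2 fold change of GF over controls was 0.54 for miR-143 and 0.52 for miR-145. That of DM over controls was 0.13 and 0.04 in the authors' deposited table. The authors' deposited table gives DM over GF, where the values were -0.40 and -0.48. Its uncorrected p-values over the 3 groups were 0.0163 for miR-143 and 0.0209 for miR-145, and both stand among its 35 miRNAs. Of the authors' deposited tables of pairs, the 1 for GF and controls holds miR-143 and not miR-145, and the tables for DM and controls and for DM and GF hold neither. When the authors' values were fitted with limma over 15 arrays, 35 of its miRNAs passed in GF against controls, which is 23.5%. There miR-143 was among them (adjusted p = 0.0286) and miR-145 was not (limma, adjusted p = 0.0670).

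**Figure D3:**
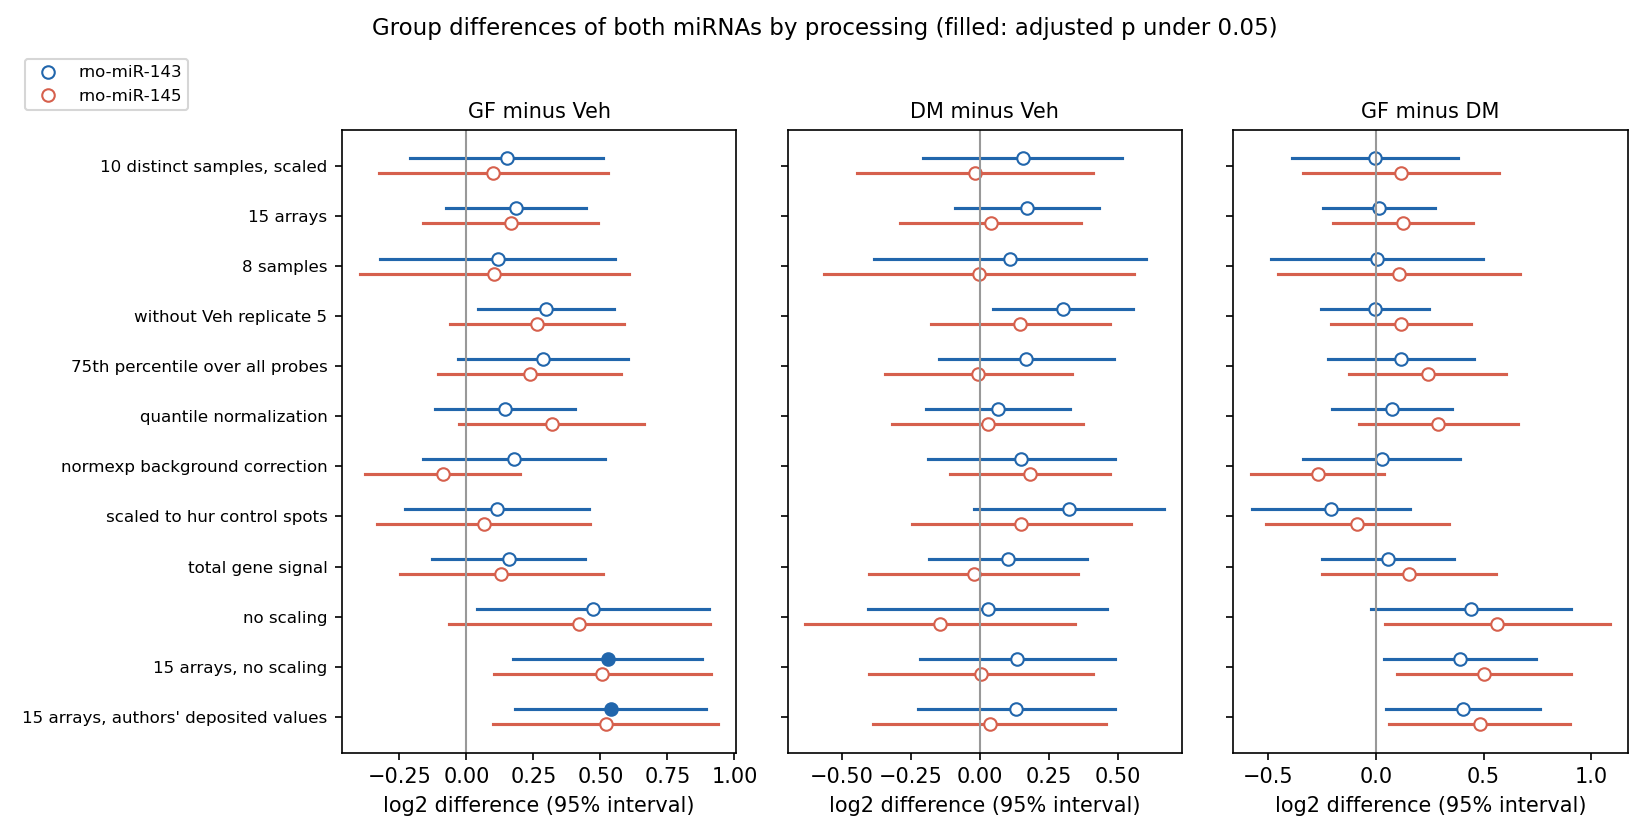
Log2 differences of rno-miR-143 (blue) and rno-miR-145 (red) between groups under 12 ways of processing, with 95% intervals from limma; filled points have an adjusted p under 0.05. The only filled points are those of miR-143 for GF minus Veh on 15 arrays without scaling and on 15 arrays with the authors' values.

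The probes of a miRNA moved together over the 10 samples, with a Pearson r of 0.97 for miR-143 and 0.88 for miR-145. These r were taken before the floor was set. The dimmer miR-145 probe had scaled signals of 17.0 on Veh 1 and 10.2 on Veh 2, below the floor of 19.8, so its r is uncertain. The dimmer miR-143 probe gave differences of 0.18 for GF against controls, 0.14 for DM against controls and 0.04 for GF against DM. The dimmer miR-145 probe, whose group means were 4.43 in GF, 4.39 in DM and 4.47 in controls, lay near the floor of 4.31. It gave -0.03 for GF against controls, -0.08 for DM against controls and 0.05 for GF against DM.

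Because both miRNAs come from 1 locus, their balance within a sample was followed as the log2 signal of miR-145 minus that of miR-143. The size of this value depends on the probes, and only its differences are read. It was -8.00, -7.88 and -7.97 in the GF samples, -8.15, -8.04 and -8.03 in the DM samples, and -8.03, -8.06, -7.66 and -7.85 in the controls. With this processing the GF samples lay above all DM samples, and the control range took in all GF and most DM values. GF minus DM was 0.12 (exact permutation test, two-sided, p = 0.100, the smallest that 3 against 3 samples allow). GF minus controls was -0.05 (exact permutation p = 0.800) and DM minus controls was -0.17 (exact permutation p = 0.286), where the smallest possible p is 0.0571. Adjusted over the 3 comparisons, these exact permutation p-values were 0.300, 0.800 and 0.429. The sign of GF minus DM held under 18 alternatives and turned under 1. That was normexp background correction, at -0.30 (exact permutation p = 0.100). With the mean of all probes, GF minus controls was -0.13 and DM minus controls -0.20 (exact permutation p = 0.0571 for both, 0.0857 adjusted).

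Across the 10 samples, scaled miR-145 followed miR-143 with a Pearson r of 0.83 (permutation p = 0.00316, 0.00527 adjusted over the 5 versions with a p) and a Spearman rho of 0.62 (permutation p = 0.0605). With the group means subtracted, r was 0.88 (permutation p = 0.000750) and rho was 0.62 (permutation p = 0.0602). GF 1+5 and Veh 5 were the samples farthest from the median miR-143 value. Without them, r was 0.60 and no longer passed (permutation p = 0.117, n = 8), so the relation rests in part on those 2 samples. They were picked by the miR-143 value itself, and leaving them out narrows its range. Without Veh 5 alone, r was 0.74 (permutation p = 0.0227, n = 9). The values of a sample share an array and its scaling, and unscaled values gave r = 0.95 (permutation p = 0.000140).

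**Figure D4:**
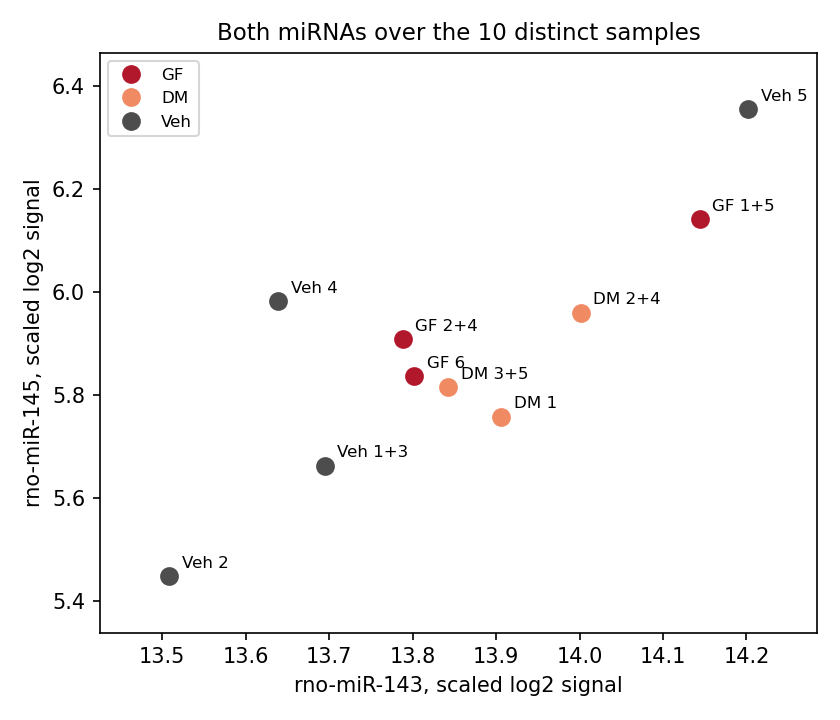
Scaled log2 signal of rno-miR-145 against rno-miR-143 in the 10 distinct samples (GF red, DM orange, Veh grey). Veh 5 and GF 1+5 lie at the upper right, Veh 2 at the lower left, and the 3 groups overlap.

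The same likeness was taken between each miRNA and the other 164 tested over the 10 samples, as a description. The median r was 0.30 for miR-143 and 0.27 for miR-145. Highest for miR-143 were rno-miR-128 (r = 0.94), rno-let-7e (0.92), rno-miR-140* (0.88), rno-miR-29c (0.87) and rno-miR-505 (0.86). For miR-145 they were rno-miR-128 (0.87), rno-miR-324-3p (0.86), rno-miR-143 (0.83), rno-miR-29c (0.81) and rno-let-7e (0.80). So miR-143 ranked number 3 for miR-145, while miR-145 ranked number 11 for miR-143. The lowest r for miR-143 were those of rno-miR-210 (-0.75), a miRNA induced by low oxygen, and rno-miR-333_v11.0 (-0.79). For miR-145 they were rno-miR-34c (-0.65) and rno-miR-181a (-0.66). The signals of miR-333_v11.0 and miR-34c ran from the floor of 4.31 to only 4.64 and 4.96, so these 2 values of r are uncertain.

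Other miRNAs known to act on the growth or the contractile state of vascular smooth muscle were read beside the cluster. Of 16 such miRNAs on the array, 15 were tested. In GF against controls their median difference was -0.15, against -0.05 for all tested. Of the 15, 0 passed as higher, against 3.03% of all tested miRNAs (5), and 2 passed as lower, against 4.85% (8). The 2 that fell were rno-miR-146a, a brake on inflammatory signalling, by 0.46 (limma, adjusted p = 0.0194), and rno-miR-497, a member of the growth-restraining miR-15 family, by 0.41 (limma, adjusted p = 0.0194). These 2 calls depended on the scaling. Neither passed with the percentile over all probes (limma, adjusted p = 0.156 for miR-146a and 0.212 for miR-497) or with no scaling, where the differences were -0.14 and -0.09 (limma, adjusted p = 0.615 and 0.782). Over all tested miRNAs these scalings gave 15 higher and 1 lower, and 16 higher and 2 lower. Means were 10.33 in GF and 10.80 in controls for miR-146a, and 10.99 in GF and 11.41 in controls for miR-497. On 15 arrays 4 of the 15 passed as higher, where 12.7% of all tested did, and 5 passed as lower, where 23.6% did. Without scaling of those arrays, 29 of all tested passed as higher and 1 as lower.

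In DM against controls 0 of the 15 passed, with a median of 0.02. The lowest unadjusted p-values were those of rno-miR-100 at -0.18, rno-miR-21 at 0.22 and rno-miR-497 at -0.13 (limma, adjusted p = 0.555 for each). In GF against DM 0 passed, with a median of -0.18. There the lowest were rno-miR-146a at -0.37 and rno-miR-497 at -0.28 (limma, adjusted p = 0.272 for both) and rno-miR-221 at -0.40 (limma, adjusted p = 0.418).

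**Figure D5:**
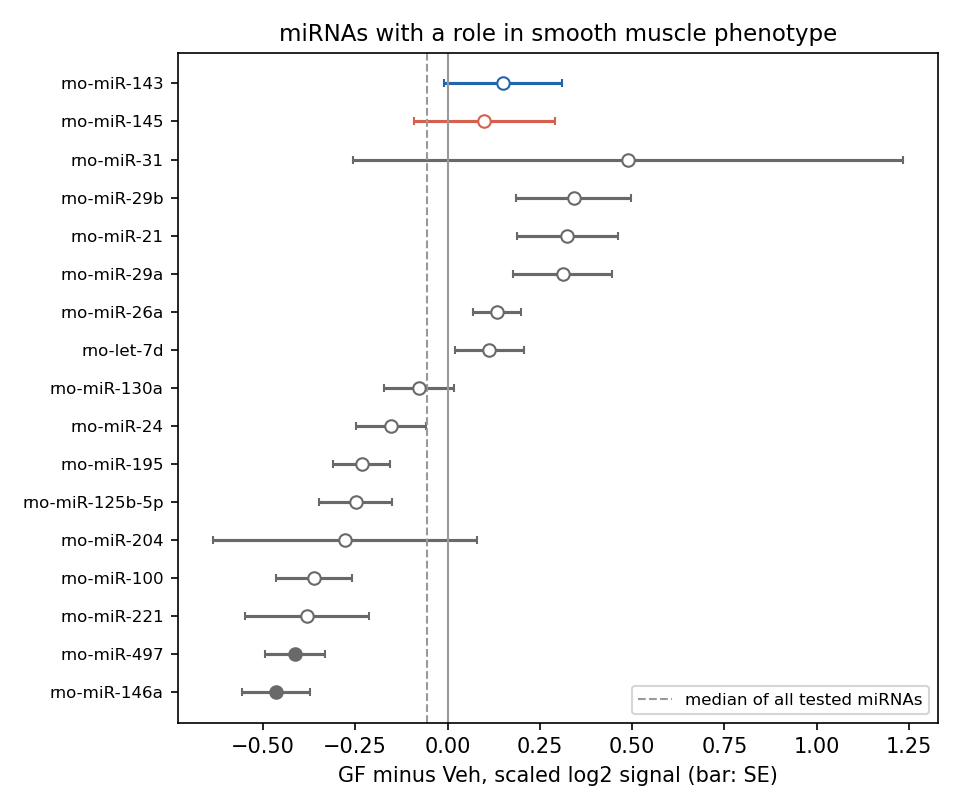
Difference between GF and control hearts (scaled log2, bars are SE) for rno-miR-143, rno-miR-145 and the 15 tested miRNAs with a role in smooth muscle phenotype; filled points have an adjusted p under 0.05 and the dashed line is the median of all tested miRNAs. Only rno-miR-497 and rno-miR-146a are filled, both lower in GF.

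Marker miRNAs of other cells were measured in the same hearts. Of the 5 cardiomyocyte markers, 0 passed as higher in GF than in controls, against 3.03% of all tested, and 1 as lower, against 4.85%. All 5 scaled differences were below 0, with a median of -0.32. With no scaling the median of all tested miRNAs was 0.25 rather than -0.05, so the signs of the smaller differences depend on the scaling. The 1 that fell was rno-miR-208, encoded in a myosin gene, by 1.34 (limma, adjusted p = 0.0194). With no scaling it stood at -1.02 (limma, adjusted p = 0.0288). Scaled rno-miR-133a stood at -0.34 (limma, adjusted p = 0.126). Of the 2 endothelial markers 0 passed, and rno-miR-126 stood at -0.37 (limma, adjusted p = 0.0542). The scaled summed endothelial signal was 13.93 to 14.05 in GF, 14.09 to 14.34 in DM and 14.23 to 14.54 in controls. GF thus lay below all other samples after scaling. With no scaling the median of all tested miRNAs was 0.35 higher in GF than in DM, so this order depends on the scaling too.

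Of the 4 fibroblast and pericyte markers 0 passed. The list was split, with rno-miR-199a-3p at -0.39 (limma, adjusted p = 0.0733), rno-miR-199a-5p at -0.48 and rno-miR-214 at -0.57, and with rno-miR-21 at 0.32 (limma, adjusted p = 0.151). Of the 2 red cell markers 0 passed, with rno-miR-451 at -0.36 in GF and -0.61 in DM against controls (limma, adjusted p = 0.220 and 0.468). Of the 5 leukocyte markers 2 fell, rno-miR-142-5p by 0.64 (limma, adjusted p = 0.0367) and rno-miR-146a as above, where 4.85% of all tested passed as lower. Of the others, rno-miR-142-3p stood at -0.48 (limma, adjusted p = 0.0887), rno-miR-223 at 0.51 (limma, adjusted p = 0.0611) and rno-miR-150 at -0.01. The calls of miR-146a and miR-142-5p were lost with no scaling (limma, adjusted p = 0.615 and 0.316). Of the 4 tested epithelial markers 2 rose, where 3.03% of all tested passed as higher. These were rno-miR-200c, by 2.58, and rno-miR-141 (limma, adjusted p = 0.0194 for both). The difference for miR-141 was 2.41, where 3 of its samples, the controls other than Veh 5, were at the floor and so had no spread. Over 26 alternatives it ran from 1.08 to 3.46, so its size is uncertain. The other 2, rno-miR-200a at 0.07 and rno-miR-200b at 0.02, were at the floor in 6 samples each. Of the 3 markers of liver and nerve tissue only rno-miR-9 was tested, and rno-miR-122 and rno-miR-124 were not. The value of rno-miR-9 was -0.54, and it did not pass. The named cardiomyocyte, leukocyte and epithelial miRNAs that passed were picked after their values were seen. Of 26 alternatives, miR-146a and miR-497 passed in 14 each, miR-142-5p in 13, miR-208 in 19, and miR-141 and miR-200c in 20 each. The alternatives share samples, and some count both arrays of a close pair, so these passes are not independent of each other. All these calls were lost when GF 2+4, Veh 1+3, Veh 2 or Veh 4 was left out (limma, 0 of 165 passed each time, with 29 to 47 at an unadjusted p under 0.05), and that of miR-142-5p also without GF 6. The summed smooth muscle signal, nearly all of it miR-143, was 13.79 to 14.15 in GF, 13.85 to 14.01 in DM and 13.51 to 14.21 in controls. Its groups overlapped throughout, and the part of other cell types in the values of miR-143 and miR-145 was not tested.

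The arrays lay on 2 slides that each held all groups. Each of the 5 close pairs had 1 array on each slide, so the slides are not independent readings. The fit with the slide as a block, given below, counts both arrays of each pair. Within slide 1 the difference between GF and controls was 0.26 for miR-143 and 0.32 for miR-145, and within slide 2 it was 0.14 and 0.06. That between DM and controls was 0.31 and 0.28 within slide 1, and 0.07 and -0.06 within slide 2. That between GF and DM was -0.05 and 0.04 within slide 1, and 0.07 and 0.12 within slide 2. With the slide as a block over 15 arrays, GF against controls was 0.19 for miR-143 (limma, adjusted p = 0.264) and 0.17 for miR-145 (limma, adjusted p = 0.317). For DM against controls it gave 0.19 (limma, adjusted p = 0.378) and 0.10 (limma, adjusted p = 0.616). For GF against DM it gave 0.00 (limma, adjusted p = 0.981) and 0.06 (limma, adjusted p = 0.774). Veh 5 lay on slide 2.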

How the data were processed

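Total RNA of rat hearts was hybridised in 1 colour (Cy3) to 15 miRNA arrays. Per the file headers, Agilent Feature Extraction 9.5.3.1 read the arrays, and the deposited array files hold spot intensity, background-subtracted and not scaled between arrays. The authors' deposited table holds log2 values of the total gene signal relative to the control mean, recomputed here to within 2.05e-06, for 149 miRNAs. The authors' comparison tables hold an uncorrected p-value per miRNA over 3 groups.

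Spots flagged as outliers were left out (153 to 294 per array). Signals were scaled to each array's 75th percentile, taken over 254 probes that every array showed well above background (over 0.5 of a probe's spots), floored at 19.8 and taken to log2. The brightest probe stood for a miRNA. A miRNA was tested when well above background on at least 3 arrays of 1 group. Arrays with a reduced chi-square under 1 against the stated error (5 of 105 pairs, 0.235 to 0.562, where the other 100 ran from 1.03 to 7.61) were averaged. Groups were compared with limma 3.58.1 (R 4.3.3), two-sided, Benjamini-Hochberg adjusted over the 165 tested miRNAs at 0.05. Single values had exact permutation tests, and correlations had 100000 permutations. The fit was tested on simulated data. Python 3.11.15, pandas 2.3.3, numpy 2.4.6, scipy 1.17.1 and matplotlib 3.10.9 were used.

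From 166 to 190 miRNAs were detected per array, and the number of arrays limits the precision. The members and lists were chosen with earlier results of these data known. The miRNAs named were the 2 members, the 5 most and 2 least like each, listed phenotype miRNAs past the threshold or else the 3 with the lowest p, and 4 defining cell markers. Deviations of the 4 same-numbered GF and control arrays correlated from 0.15 to 0.47, so the replicate block was read for that comparison. The labels give no pairing, and over all 13 same-numbered pairs the range was -0.53 to 0.47. For DM and control arrays it was -0.30 to 0.29, and whether the numbers pair any arrays was not tested. Alternatives were other scalings, normexp background correction (offset 50, on the median spot and background signals, since no mean signal column was used), mean of probes, total gene signal, no filter, slide and replicate blocks, and each sample left out. Merging 4 further pairs (1.03 to 1.15) into 8 samples was a further alternative. Fits of 15 arrays without scaling and with the authors' values, and the correlation without Veh 5, were added after seeing the data.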

Additional observations from a re-analysis of the deposited data

How the results depend on the processing

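Neither miRNA passed an adjusted p of 0.05 (limma) in any comparison, except miR-143 in GF against controls on 15 arrays without scaling (0.53) and on 15 arrays with the authors' values (0.54). Over 26 alternatives the difference between GF and controls ran from 0.03 to 0.54 for miR-143, above 0 in all, and from -0.09 to 0.52 for miR-145, above 0 in 24. None of the differences that changed sign passed, and the causes were not tested.

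The GF minus DM difference of miR-143, -0.01 as reported, was 0.015 with 15 arrays and 0.0054 with 8 samples. It was 0.12 with the percentile over all probes, 0.076 with quantile normalization, 0.44 with no scaling and 0.39 with 15 arrays and no scaling. Normexp gave 0.026, averaging the probes 0.016, total gene signal 0.055, the authors' values 0.45 and these on 15 arrays 0.40. For miR-145, GF minus controls was -0.089 with normexp. Its GF minus DM difference was -0.087 with scaling to the hur control spots and -0.27 with normexp. Its DM minus controls difference, -0.02 as reported, was 0.040 with 15 arrays, 0.029 with quantile normalization, 0.0057 with 15 arrays and no scaling, 0.15 with the hur spots, 0.18 with normexp, 0.037 with the authors' values on 15 arrays, 0.10 with the slide as a block and 0.28 within slide 1.

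Leaving out 1 sample at a time, GF minus controls ran from 0.03 to 0.30 for miR-143 and from -0.038 to 0.26 for miR-145, DM minus controls from 0.07 to 0.30 and from -0.16 to 0.15, and GF minus DM from -0.12 to 0.056 and from 0.03 to 0.18. Signs turned for miR-143 (GF minus DM) without GF 2+4, GF 6 or DM 2+4, and for miR-145 without Veh 2 (GF minus controls) or without DM 1, Veh 4 or Veh 5 (DM minus controls). The balance of miR-145 and miR-143 ran from -0.10 to 0.030 for GF minus controls, turning sign without Veh 4. For GF minus controls it was 0.18 with quantile normalization and 0.059 within slide 1, signs that turned too. With normexp it was 0.030 for DM minus controls and -0.30 for GF minus DM. Within slide 1 it was -0.031 for DM minus controls, smaller with the same sign.

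With the replicate block over 15 arrays, miR-143 was 0.20 and miR-145 0.17 higher in GF than in controls (limma, adjusted p = 0.233 and 0.289), the GF minus DM difference of miR-143 was 0.025, and the DM minus controls difference of miR-145 was 0.040. The block changed no call of either miRNA. Deviations of same-numbered GF and control arrays correlated from 0.15 to 0.47, and those of DM and control arrays from -0.30 to 0.29. The labels give no pairing, and whether the numbers pair any arrays was not tested.

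The number of miRNAs that passed in GF against controls, 13 as reported, was 60 with 15 arrays, 30 with these unscaled, 35 with the authors' values on them, 57 with the slide as a block and 50 with the replicate block. It was 21 with the mean of probes, 5 with the hur spots, 2 with the authors' values, 0 with 8 samples (35 at an unadjusted p under 0.05) and 0 with no filter (46 unadjusted). It was 0 without GF 2+4, Veh 1+3, Veh 2 or Veh 4, 8 without GF 6, 24 without DM 3+5 and 28 without Veh 5. In DM against controls, where 0 passed, it was 3 with 15 arrays, unscaled or with the slide as a block too, 5 with the authors' values on them, 4 with the replicate block, and 0 to 2 with 1 sample left out (2 without DM 1). In GF against DM, where 0 passed, it was 6 with 15 arrays, 7 with these unscaled, 4 with the authors' values on them, 5 with the slide as a block, 1 with the replicate block, 1 each with no scaling and normexp on the 10 samples, and 0 to 6 with 1 sample left out (6 without DM 3+5).

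Signal over background limits miR-145 more than miR-143, since its second probe was well above background on 10 of 15 arrays. With 3 or 4 samples a group, the reported intervals reach 1.43-fold for miR-143 and 1.49-fold for miR-145, and with no scaling 1.87-fold and 2.12-fold.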
